A study of Homo sapiens with 10 samples.

Results

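The data described here cover 9 genes that encode subunits of the nuclear RNA polymerases, measured by RNA-seq in HeyA8 ovarian cancer cells. Of these genes, 5 encode the subunits that RNA polymerases I, II and III have in common (POLR2E, POLR2F, POLR2H, POLR2K and POLR2L), and 4 encode catalytic core subunits of RNA polymerase II (POLR2A and POLR2B) and of RNA polymerase III (POLR3A and POLR3B). They were chosen by name, with earlier results of these data known, so the tests below are not of a set chosen without the data. Their symbols were matched to the Ensembl identifiers of the count files, and they are 9 of 58395 genes in those files. All 9 were among the 16905 genes with enough counts to be tested. HeyA8 is an established human cell line, and the cells were transfected with 10 nM of an siRNA and lysed 24 or 48 h later. The siRNAs were siNT1, the nontargeting control, siGGGGGC, named after its 6mer seed (the bases 2 to 7 of the guide strand), and siGGCAGU, which has the seed of miR-34a-5p. By the sequences in the study's methods, the 3 guide strands differed in the seed and were the same elsewhere. In those sequences the passenger strand, which pairs with the guide, carried modified bases in each siRNA. The study gives the aim of this, for siGGGGGC and siGGCAGU, as keeping that strand out of the silencing complex. The sample titles of siNT1 add S2'OM. Both times were sequenced for siNT1 and siGGGGGC, and only the later one, 48 h, for siGGCAGU, with 2 libraries per group and 10 libraries in all. The replicates were duplicate wells, so p-values measure the spread between wells of 1 cell line and not between lines.

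RNA polymerase I makes the large ribosomal RNA precursor, RNA polymerase II makes messenger RNAs, and RNA polymerase III makes transfer RNAs, 5S ribosomal RNA and other short RNAs. Each enzyme is built around a large and a second-largest subunit that form the active site, held together by an assembly platform, and the shared subunits are the same protein in each of the 3 enzymes. The seed of a guide strand pairs with its reverse complement in messenger RNAs, mostly in the 3′ UTR, and a bound messenger RNA is usually repressed and degraded. The study followed up 10 genes that were downregulated with siGGGGGC at 24 h, were highly expressed and had a match to its seed in the 3′ UTR, and POLR2E and POLR2K are 2 of those 10. For this reason the values of siGGGGGC at 24 h, and the seed matches of POLR2E and POLR2K, are given below as a description with no test, and tests are given for the comparisons at 48 h. The 48 h libraries are from the same experiment. The falls of POLR2E and POLR2K with siGGGGGC at 48 h are therefore no independent evidence of that direction. For both genes the study also reports qPCR, siRNA pull-downs and luciferase reporters with mutated seed matches, and for POLR2E a Western blot. In its reporters, the mutant 3′ UTRs were more resistant to siGGGGGC.

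The seed matches are shown first because POLR2E and POLR2K carry matches for siGGGGGC and because POLR2F carries one as well. The word searched for siGGGGGC was GCCCCC and that for siGGCAGU was ACTGCC, in the direction of the transcript only, in the longest 3′ UTR of each gene in GENCODE 44 (hg38). GCCCCC was in the 3′ UTR of 30.16% of 19248 protein-coding genes and ACTGCC in 32.66%. Among the 8 genes for which a 3′ UTR was found in the annotation, GCCCCC was in POLR2E, with 3 copies, in POLR2F, with 1, and in POLR2K, with 1. No copy was found in POLR2H, POLR2L, POLR2B, POLR3A or POLR3B. For POLR2A no 3′ UTR was obtained from the annotation, so its 3′ UTR was not searched and matches there are not known. The windows below are 30 bases of the transcript strand from hg38, and capitals mark the match to bases 2 to 7 of the guide. The copies of POLR2E, on the minus strand of chromosome 19, begin 83, 236 and 410 bases into a 3′ UTR of 2161 bases, and that of POLR2F, on the plus strand of chromosome 22, begins at base 610 of 1597.
POLR2E, chr19:1088635-1088664: tgccagaatccgGCCCCCacagctctcacg
POLR2E, chr19:1088482-1088511: agaaggaacaagGCCCCCagagggaggtca
POLR2E, chr19:1088308-1088337: tgatgcgtggcgGCCCCCgcccggcctcgg
POLR2F, chr22:37968313-37968342: ctgcctacccctGCCCCCatggctctgtcc

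An A after the word makes a 6mer match a 7mer-A1 site, and a further pair with base 8 of the guide makes it an 8mer site. The first pair of copies in POLR2E were 7mer-A1 sites and the last was a 6mer site. The copy in POLR2K, in the first part of its 3′ UTR at base 128 of 687, was a 7mer-A1 site. POLR2F had the longest match of the 8 genes searched, an 8mer site. For siGGCAGU, matches were found in POLR2E, POLR2F and POLR2H, with 1 copy each, and in POLR3A, with 2 copies. A mature miRNA with this seed, miR-34a-5p, is shown for comparison, from RefSeq (chr1:9151735-9151756, minus strand), with its bases 2 to 8 in capitals. Its base 8 is G, where the siGGCAGU guide has A, and miR-449a, miR-449b-5p and miR-548au-3p have the same 6mer seed. Below it are the windows of the gene that fell most with siGGCAGU (POLR2H, plus strand) and of 1 with a longer match (POLR2F, plus strand).
hsa-miR-34a-5p: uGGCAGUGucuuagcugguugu
POLR2H, chr3:184368526-184368555: ttactttttcagACTGCCcctccccttttt
POLR2F, chr22:37968723-37968752: aacctccattccACTGCCagctccccttca
The match in POLR2H was a 6mer site and that in POLR2F a 7mer-A1 site. In the shortest annotated 3′ UTRs, only 1 of the 8 genes searched kept a GCCCCC (POLR2E) and 1 an ACTGCC (POLR3A), and which 3′ UTR the cells used was not measured.

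**Figure D1:**
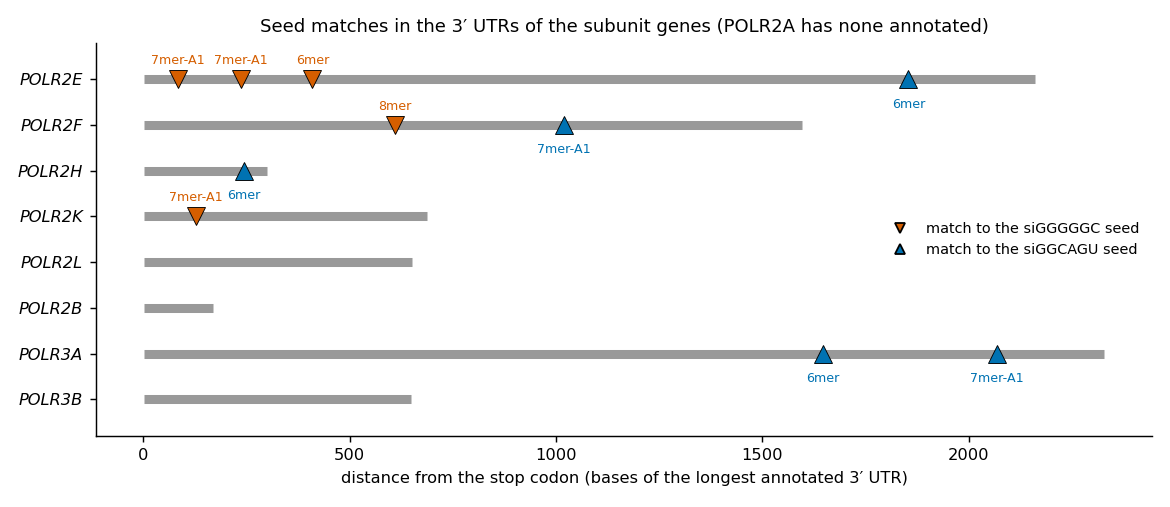
Grey bars are the longest annotated 3′ UTRs of 8 of the genes, in bases from the stop codon, and triangles are matches to the siGGGGGC seed (pointing down) and the siGGCAGU seed (pointing up), each with its site type. POLR2E holds 3 matches to the siGGGGGC seed, POLR2F and POLR2K hold 1 each, and POLR2L, POLR2B and POLR3B hold none for either siRNA.

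The libraries held 19781445 to 42428986 counts, and the abundant noncoding RNAs RN7SL2 and SNORD3A took 19.83% to 31.96% of them. The siNT1 replicate 1 at 24 h stood apart, with 33365 genes with at least 1 count against 25238 to 28703 in the other 9 libraries. The 4 endothelial markers summed to at most 2.77 CPM (counts scaled to the library total). Of 7 genes used as markers of ovarian carcinoma, 6 had a mean count of at least 10, and their summed level was 251 to 280 CPM with siGGGGGC at 48 h and 693 to 856 in the other groups. All 4 mesenchymal markers were detected, with a sum of 972 to 1010 with siGGGGGC at 48 h, 1210 to 1230 with siGGGGGC at 24 h and 1690 to 2850 in the other groups. The part of these shifts in the results below was not tested. POLR2E, POLR2F, POLR2L, POLR2B, POLR3A and POLR3B share 55 to 352 exonic bases with a gene on the opposite strand, and as the strand setting of the counting is not given in the sources used here, reads from these bases cannot be told apart. Values below are normalised counts, that is, counts scaled to a common library size. A lower value means fewer counts relative to that size, which is taken over all genes kept and not over messenger RNAs alone. In bulk samples less of an RNA per cell cannot be told apart from fewer cells of a kind that expresses it.

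At 48 h with siGGGGGC, POLR2E and POLR2K fell to 25.5% and 33.9% of their siNT1 levels, POLR2H fell less, and the other shared subunits POLR2F and POLR2L were higher than in siNT1. POLR2A was also higher, and POLR2B, POLR3A and POLR3B did not pass the test. Thus the genes of 5 proteins that occur together in each of the polymerases did not move together. In all, 3 of the 9 genes rose and 3 fell at an adjusted p below 0.05, where 27.8% of all genes tested rose and 27.5% fell. Beyond a log2 fold change of 1 were 2 of the 9, both lower, and 21.5% of all genes in either direction. The median log2 fold change was 0.03 over the 9 genes, -0.43 over the 5 shared subunits and 0.04 over the 4 catalytic ones, against -0.01 over all genes tested.

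POLR2E (ENSG00000099817, chr19:1086574-1095380, minus strand) encodes a subunit of the jaw of the enzyme, which grips the DNA ahead of the active site. In siNT1 it was at 1872.8 and 1908.2 normalised counts at 48 h, and with siGGGGGC at 453.81 and 509.47. Both libraries with siGGGGGC were below each siNT1 library at either time. The log2 fold change at 48 h was -1.97 with a standard error (SE) of 0.0914 (adjusted p = 2.13e-10 by edgeR's quasi-likelihood fit, with the Benjamini-Hochberg method applied over all genes). With siGGCAGU the gene was at 1905.5 and 1983.7, a range that overlapped with siNT1, and its log2 fold change was 0.04 (SE 0.0844, adjusted p = 0.711, same test). Set directly against siGGCAGU, siGGGGGC gave -2.01 (SE 0.092, adjusted p = 1.44e-10, same test). At 24 h, the comparison in which the study chose the gene, POLR2E was at 1749.4 and 1843.5 in siNT1 and at 564.44 and 594.86 with siGGGGGC, a log2 fold change of -1.63 (SE 0.0926).

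POLR2K (ENSG00000147669, chr8:100150623-100154003, plus strand) encodes a small zinc-binding subunit of the assembly platform. In siNT1 at 48 h it was at 4036 and 5312.7 normalised counts, and with siGGGGGC at 1568.2 and 1603. The siNT1 libraries differed from each other, but both were above each library with siGGGGGC. The difference was -1.56 on the log2 scale (SE 0.119, adjusted p = 3.9e-08, edgeR). With siGGCAGU the gene was at 6702.5 and 5745.9, above both siNT1 libraries of that time, with a log2 fold change of 0.41 (SE 0.115, adjusted p = 0.00698, edgeR). This rise rested on single libraries. It was 0.22 (adjusted p = 0.106, edgeR) without siNT1 replicate 1 at 48 h, 0.30 (adjusted p = 0.0535) without siGGCAGU replicate 1, and 0.36 (adjusted p = 0.0838) when the libraries compared were fitted alone. The direct comparison of siGGGGGC with siGGCAGU gave -1.97 (SE 0.121, adjusted p = 2.8e-09, edgeR), and the same value (-1.97, adjusted p = 4.71e-08) when only the libraries of these siRNAs were fitted. At 24 h POLR2K was at 5609.8 and 5745.3 in siNT1 and at 1657.2 and 1540.1 with siGGGGGC, a log2 fold change of -1.83 (SE 0.121).

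The other zinc-binding subunit of the platform, POLR2L (ENSG00000177700, chr11:837356-842529, minus strand), did not share the fall. Its normalised counts at 48 h were 5250.4 and 5673.1 in siNT1, 6547.8 and 6582.8 with siGGGGGC, and 6890.8 and 7036.4 with siGGCAGU. Both siRNAs were above siNT1 in each library. In log2 terms the rise was 0.27 with siGGGGGC (SE 0.0844, adjusted p = 0.0147, edgeR) and 0.35 with siGGCAGU (SE 0.0844, adjusted p = 0.00255, edgeR), and the siRNAs did not differ from each other beyond the error (-0.09, SE 0.0845, adjusted p = 0.418, edgeR). The call for siGGGGGC was lost without a filter on low counts (0.14, adjusted p = 0.383), without siNT1 replicate 1 at 48 h (0.20, adjusted p = 0.0922), and without either siGGGGGC replicate (0.26 each, adjusted p = 0.0782 and 0.081). That for siGGCAGU was lost when the libraries compared were fitted alone (0.30, adjusted p = 0.0832).

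POLR2F (ENSG00000100142, chr22:37952607-38041915, plus strand) encodes a subunit at the base of the clamp, the part of the enzyme that closes over the DNA. It is the gene with the 8mer site for siGGGGGC shown above. Its normalised counts at 48 h were 2199.6 and 2611.1 in siNT1 and 3078.3 and 3238.1 with siGGGGGC, and the groups did not overlap. This was a log2 fold change of 0.39 (SE 0.0975, adjusted p = 0.00305, edgeR), in the direction opposite to POLR2E and POLR2K. With siGGCAGU it was at 2100.3 and 2299.9, which overlapped with siNT1 (-0.13, SE 0.0978, adjusted p = 0.292, edgeR). The difference between siGGGGGC and siGGCAGU was 0.52 (SE 0.0983, adjusted p = 0.000337, edgeR).

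POLR2H (ENSG00000163882, chr3:184361710-184368596, plus strand), which encodes a small subunit that packs against the largest one, was the member with the strongest fall with siGGCAGU. At 48 h it was at 2942.4 and 3521.4 normalised counts in siNT1, at 1766.8 and 1652.7 with siGGCAGU, and at 2327.1 and 2484.2 with siGGGGGC. The 3 groups did not overlap, and siGGGGGC lay between the others. The log2 fold change was -0.92 with siGGCAGU (SE 0.0967, adjusted p = 1.05e-06, edgeR) and -0.43 with siGGGGGC (SE 0.0956, adjusted p = 0.00142, edgeR). The 2 siRNAs differed by 0.49 (SE 0.0971, adjusted p = 0.000479, edgeR). POLR2H has a 6mer match for siGGCAGU and none for siGGGGGC in its longest 3′ UTR.

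**Figure D2:**
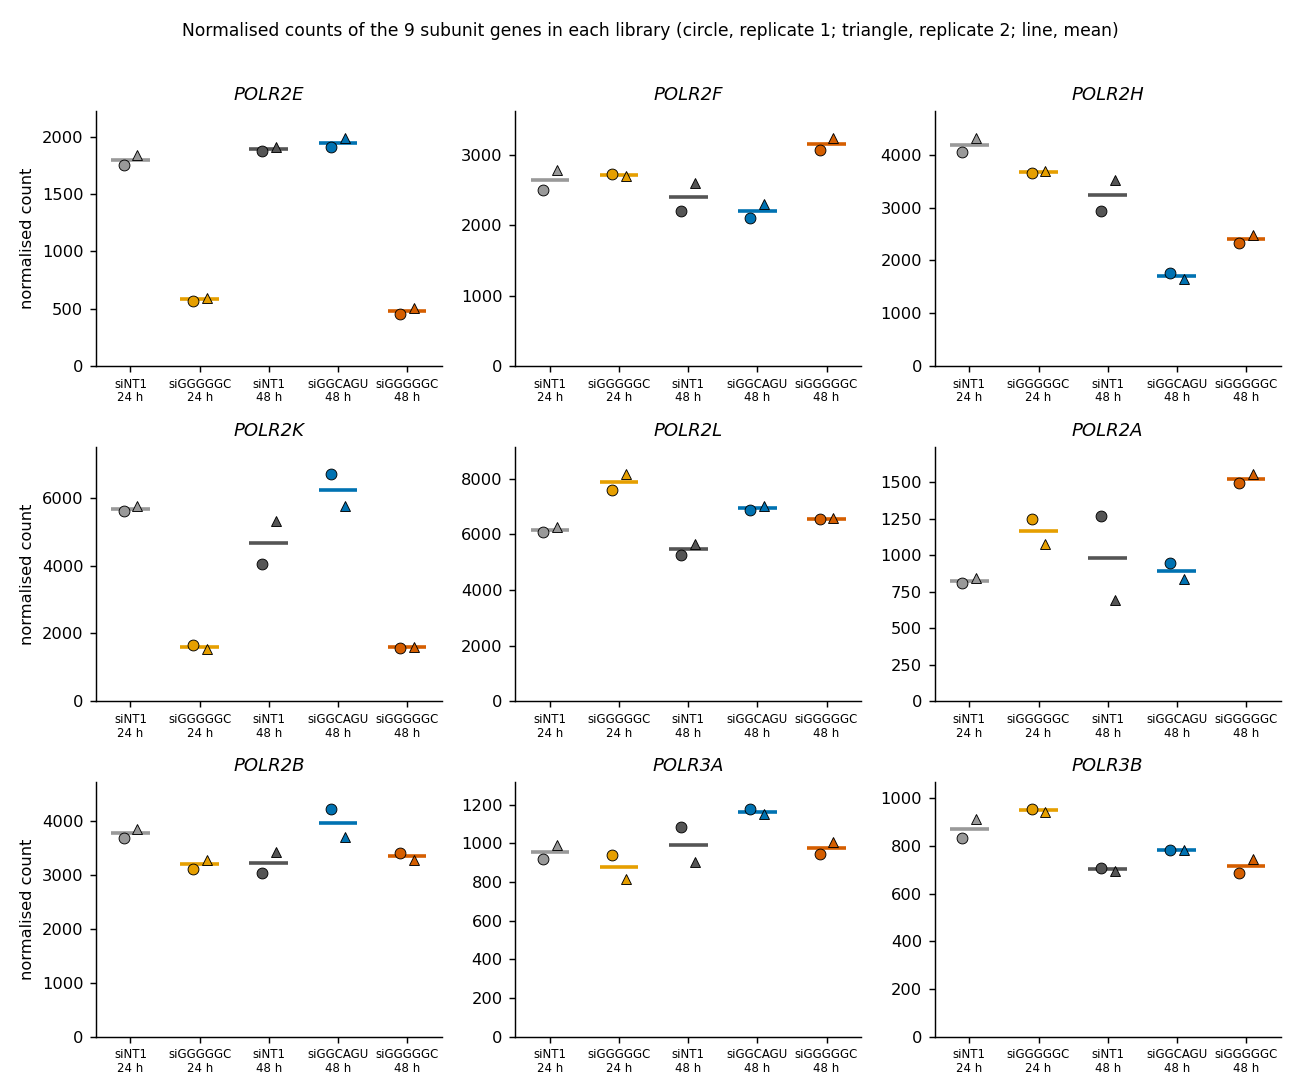
Each panel plots the normalised counts of 1 gene (vertical axis, from 0) in the 10 libraries by group, with circles for replicate 1, triangles for replicate 2 and a line at the mean of the group. POLR2E and POLR2K are lowest in the 4 libraries with siGGGGGC, POLR2H is lowest with siGGCAGU, and the siNT1 libraries of POLR2A at 48 h are far apart.

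The catalytic subunits of RNA polymerase II did not follow POLR2E and POLR2K. POLR2A (ENSG00000181222, chr17:7484366-7514616, plus strand), the largest subunit, whose tail recruits the factors that cap, splice and end the transcript, was at 1491.1 and 1557.4 normalised counts with siGGGGGC at 48 h. The siNT1 libraries at that time were far apart, at 1267.1 and 692.59, and both were below siGGGGGC. This gave a log2 fold change of 0.64 (SE 0.184, adjusted p = 0.00781, edgeR). Its size rested on these control libraries, with 1.13 without siNT1 replicate 1 and 0.26 (adjusted p = 0.077) without siNT1 replicate 2, and the call was also lost without siGGGGGC replicate 2 (0.61, adjusted p = 0.0504, edgeR). With siGGCAGU the gene was at 949.46 and 836.04, and siGGGGGC against siGGCAGU gave 0.78 (SE 0.187, adjusted p = 0.00244, edgeR), also when only the libraries of these siRNAs were fitted (adjusted p = 6.63e-05).

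No direction can be given for POLR2A with siGGCAGU against siNT1. The log2 fold change was -0.13 (SE 0.187, adjusted p = 0.583, edgeR), and it was 0.35 (adjusted p = 0.0234) without siNT1 replicate 1 and -0.52 (adjusted p = 0.00162) without siNT1 replicate 2 at 48 h.

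POLR2B (ENSG00000047315, chr4:56977722-57031158, plus strand), the second-largest subunit of RNA polymerase II, was at 3021.4 and 3413.7 normalised counts in siNT1 at 48 h and at 3406.9 and 3276.4 with siGGGGGC, an overlap (0.05, SE 0.093, adjusted p = 0.645, edgeR). With siGGCAGU it was at 4212.4 and 3690, above both siNT1 libraries. The rise of 0.29 (SE 0.0929, adjusted p = 0.0144, edgeR) was lost without siNT1 replicate 1 (0.20, adjusted p = 0.129), without siGGCAGU replicate 1 (0.20, adjusted p = 0.109), without a filter on low counts (0.21, adjusted p = 0.133) and in the fit of the libraries compared (0.25, adjusted p = 0.16). The direct difference, siGGGGGC against siGGCAGU, was -0.24 (SE 0.0933, adjusted p = 0.0397, edgeR) and did not pass with the RLE size factors of DESeq2 (adjusted p = 0.0611), in DESeq2 (adjusted p = 0.0845), in the fit of the libraries compared (adjusted p = 0.0719) or with the replicate number as a block (adjusted p = 0.0581). It was also lost without siGGCAGU replicate 1 (-0.15, adjusted p = 0.227), siGGGGGC replicate 1 (-0.27, adjusted p = 0.0967) or siGGGGGC replicate 2 (-0.21, adjusted p = 0.199).

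The catalytic subunits of RNA polymerase III were close to their siNT1 levels. POLR3A (ENSG00000148606, chr10:77953148-78029522, minus strand), the largest subunit, was at 1082 and 902.26 normalised counts in siNT1 at 48 h, at 942.26 and 1006.5 with siGGGGGC, and at 1177 and 1151.4 with siGGCAGU. siGGGGGC lay within the range of siNT1 (-0.02, SE 0.104, adjusted p = 0.863, edgeR). siGGCAGU was above both siNT1 libraries and did not pass the test (0.23, SE 0.103, adjusted p = 0.0715, edgeR), and POLR3A holds 2 matches to its seed. It was 0.36 (adjusted p = 0.0159, edgeR) without siNT1 replicate 1 and 0.26 (adjusted p = 0.0432) with upper quartile normalization. The siRNAs differed by -0.26 (SE 0.105, adjusted p = 0.0504, edgeR), which passed in 4 alternatives (adjusted p = 0.0301 to 0.0398). POLR3B (ENSG00000013503, chr12:106357748-106510198, plus strand), the second-largest subunit, was at 708.67 and 694.88 in siNT1, at 685.18 and 744.54 with siGGGGGC (0.03, SE 0.0898, adjusted p = 0.816, edgeR), and at 783.37 and 781 with siGGCAGU (0.16, SE 0.0892, adjusted p = 0.156, edgeR).

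**Figure D3:**
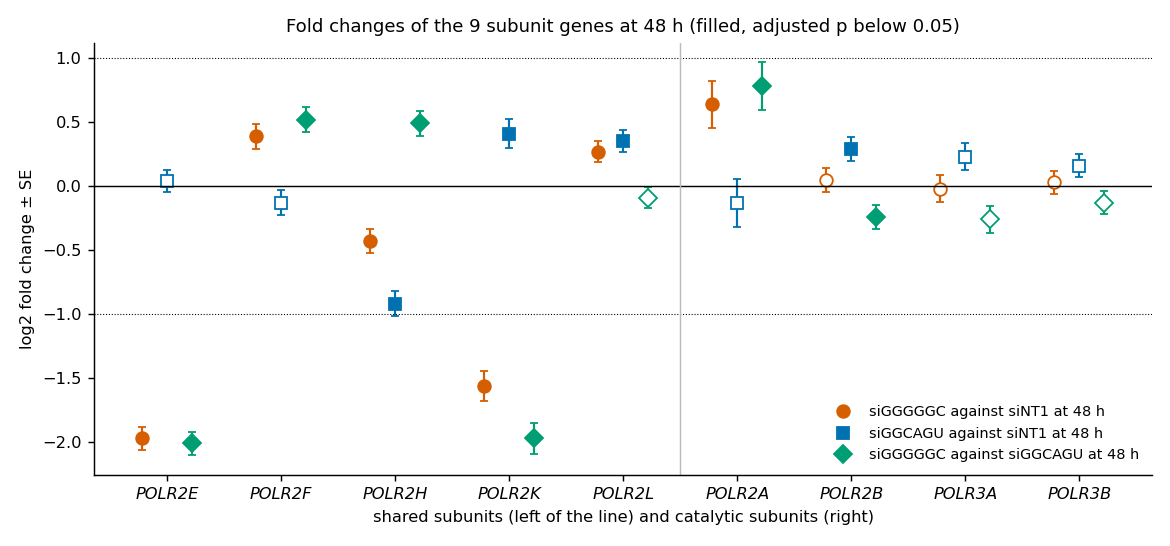
The vertical axis is the log2 fold change at 48 h with its SE for the 9 genes, in 3 comparisons marked by colour and shape, and filled symbols passed the test (adjusted p below 0.05). POLR2E and POLR2K lie near -2 with siGGGGGC against siGGCAGU, and no other gene of the 9 lies beyond 1 in any of the 3 comparisons.

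With siGGCAGU, 3 of the 9 genes rose (POLR2K, POLR2L and POLR2B) and 1 fell (POLR2H), where 27.8% of all genes tested rose and 24.9% fell. None was beyond a log2 fold change of 1, which 20.3% of all genes passed, and the median was 0.16 against 0.02 over all genes. In the fit of the libraries compared, 1 of the 9 passed, and 2 passed without siGGCAGU replicate 1. In the direct comparison of siGGGGGC with siGGCAGU, 3 of the 9 were higher (POLR2F, POLR2H and POLR2A), with 26.7% of all genes, and 3 were lower (POLR2E, POLR2K and POLR2B), with 27.6%. Below -1 were 2 of the 9 and 12.8% of all genes. The comparisons of siGGGGGC and of siGGCAGU with siNT1 at 48 h share their control libraries, so their values are set side by side here and are not independent.

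In siNT1 alone, from 24 to 48 h, 2 of the 9 genes fell and none rose, where 7.2% and 9.37% of all genes did. These were POLR2H, from 4044.2 and 4308.9 normalised counts to 2942.4 and 3521.4 (-0.37, SE 0.095, adjusted p = 0.0175, edgeR), and POLR3B, from 832.94 and 912.59 to 708.67 and 694.88 (-0.31, SE 0.0897, adjusted p = 0.0281, edgeR). POLR2H passed in 1 of the 4 fits that left out a siNT1 library, the one without replicate 2 at 48 h (-0.50, adjusted p = 0.00299, edgeR; 0.083 to 0.189 in the others), and POLR3B in none of them (adjusted p = 0.0747 to 0.274). In all, 0 to 4 of the 9 passed when single siNT1 libraries were left out. Without siNT1 replicate 2 at 48 h, the fall of POLR2K was -0.49 (adjusted p = 0.00552, edgeR) in place of -0.28 (SE 0.115, adjusted p = 0.108), and the difference of POLR2A was 0.63 (adjusted p = 0.00162) in place of 0.24 (SE 0.189, adjusted p = 0.407). The siNT1 libraries of 24 h also belong to the comparison in which POLR2E and POLR2K were chosen.

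At 24 h with siGGGGGC, POLR2E and POLR2K were the only 2 of the 9 genes beyond a log2 fold change of 1, where 2.17% of all genes tested fell that far at an adjusted p below 0.05. As the gene choice used this comparison, it is described without a test. Without siNT1 replicate 1 at 24 h, the library with the most genes detected, their log2 fold changes were -1.67 and -1.84. The other members lay between -0.24 for POLR2B and 0.50 for POLR2A. POLR2L was at 7593.2 and 8180.7 normalised counts against 6076.4 and 6255.9 in siNT1 (0.36, SE 0.0848), POLR2A at 1248.7 and 1076.7 against 807.88 and 841.89 (SE 0.193), and POLR2B at 3100.8 and 3276 against 3685 and 3841.5 (SE 0.094). POLR2H was at 3647.9 and 3685 against 4044.2 and 4308.9 (-0.19, SE 0.0956). Thus POLR2L and POLR2A were above, and POLR2B and POLR2H below, both siNT1 libraries. POLR2F, the gene with the 8mer site, was within the range of siNT1, at 2734.1 and 2711.2 against 2506 and 2795.4 (0.04, SE 0.0988). POLR3A (-0.12, SE 0.108) overlapped with siNT1, and POLR3B (0.12, SE 0.0913) was above both siNT1 libraries.

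Between the times, the siGGGGGC effects on each of the 9 genes differed by less than 1 on the log2 scale, and these differences were not tested. The effect at 48 h minus that at 24 h, as a description, ranged from -0.34 (SE 0.128) for POLR2E to 0.35 (SE 0.139) for POLR2F, and was 0.27 (SE 0.166) for POLR2K. POLR2E was at 32.3% of siNT1 at 24 h and 25.5% at 48 h, and POLR2K at 28.2% and 33.9%. The higher level of POLR2F was seen at 48 h. For POLR2K the difference was 0.067 without siNT1 replicate 1 at 48 h and 0.47 without siNT1 replicate 2.

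**Figure D4:**
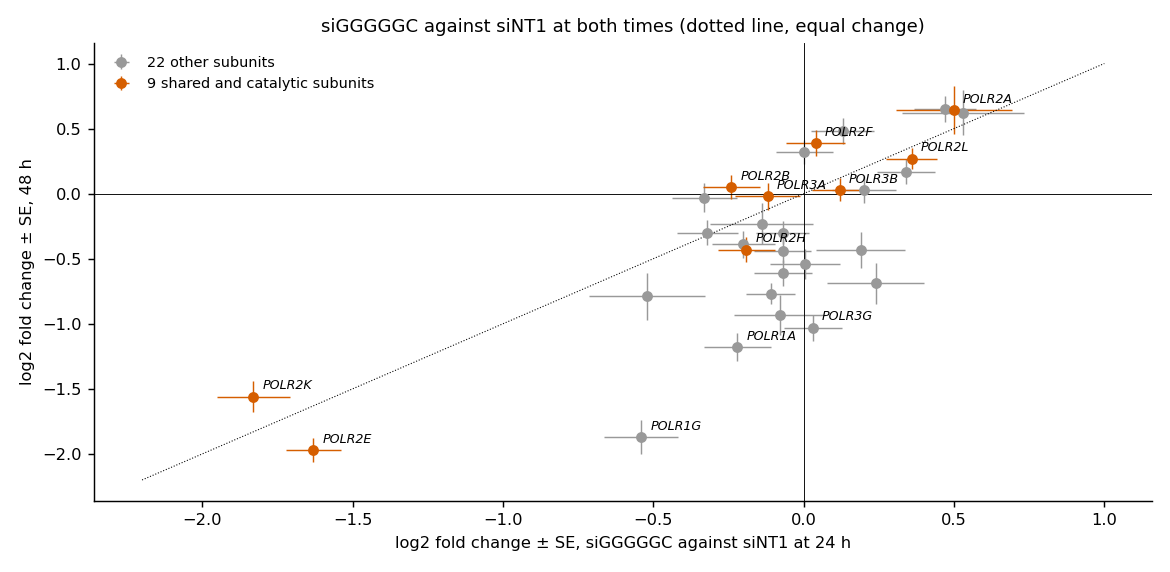
Each point is a subunit gene, with its log2 fold change and SE for siGGGGGC against siNT1 at 24 h on the horizontal axis and at 48 h on the vertical axis, in orange for the 9 genes and in grey for 22 other subunits. POLR2E and POLR2K are far below 0 at both times near the line of equal change, while POLR1G and POLR3G are far below it.

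Levels were compared between genes per kilobase of merged exons. In siNT1 at 24 h, the order was POLR2L with 5476 normalised counts per kilobase (SD 113, n = 2), POLR2K with 3394 (SD 57.2), POLR2H with 1324 (SD 59.4), POLR2B with 638.8 (SD 18.8), POLR2F with 378.2 (SD 29.2), POLR2E with 368.9 (SD 13.7), POLR3B with 183 (SD 11.8), POLR2A with 98.73 (SD 2.88) and POLR3A with 60.6 (SD 3.25). By this length only POLR2F and POLR2E overlapped in their libraries, and each other pair of neighbours in the order was apart. The highest level was 90.4 times the lowest. The order and the ratio depend on the length used. Per kilobase of the longest transcript of each gene, POLR2F with 1281 (SD 98.9) was above POLR2B with 916.1 (SD 26.9) and POLR2E with 629.5 (SD 23.3), POLR2A with 122.2 (SD 3.56) was the lowest, next to POLR3A with 125.8 (SD 6.74), and the ratio was 57.6. Per kilobase of merged exons, POLR2E with siGGGGGC was at rank 8 of the 9 at both times, against rank 6 in siNT1 at 24 h and rank 5 at 48 h, with 119 per kilobase (SD 4.42) at 24 h and 98.9 (SD 8.08) at 48 h, below POLR2A with 139.2 (SD 14.6) and 182.4 (SD 5.61). By the longest transcript it was above POLR2A at 24 h, with 203.1 (SD 7.54) against 172.2 (SD 18), and below it at 48 h, with 168.8 (SD 13.8) against 225.8 (SD 6.95). POLR2K, at 955.6 (SD 49.5) and 947.8 (SD 14.7), remained among the 3 highest.

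Across the 10 libraries, POLR2E and POLR2K varied together (Pearson r of log2 CPM, 0.98), and POLR2A varied against both (-0.79 with POLR2E and -0.80 with POLR2K). POLR2F did so as well, with -0.76 and -0.71. These values describe 5 groups of 2 libraries, which share treatments and library depth, and carry no test. POLR2E and POLR2K were both chosen for a fall with siGGGGGC at 24 h, in libraries correlated here. Their correlation with each other is therefore not independent of that choice. Of 9978 genes with a mean normalised count of at least 100, those most like POLR2E were SHISA5 (r = 0.991), SIRT2 (0.983), EIF5AL1 (0.983), LINC01605 (0.981) and OPA3 (0.981). Those most like POLR2K were RHOC (0.985), SIRT2 (0.984), BPNT1 (0.979), MR1 (0.978) and RASSF8 (0.977). RHOC is another of the 10 genes that the study chose for a fall with siGGGGGC at 24 h. The libraries of that choice are among those correlated here, so its likeness to POLR2K is not independent of it. The log2 fold change of SIRT2, which is on both lists, was -2.22 with siGGGGGC at 48 h and 0.36 with siGGCAGU. EIF5AL1 is a near copy of EIF5A, so its counts are uncertain.

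Of the other subunits of the 3 polymerases, 23 had a single identifier and 22 were tested. With siGGGGGC at 48 h, 14 of the 22 fell, 4 rose and 4 did not pass, and their median log2 fold change was -0.41, where 27.5% of all genes fell and 27.8% rose. With siGGCAGU, 11 fell, 7 rose and 4 did not pass, with a median of -0.31, where 24.9% of all genes fell and 27.8% rose. These shares are also the background for the counts of subunits and factors by polymerase at 48 h that follow. Beyond a log2 fold change of 1 with siGGGGGC were 3 genes, POLR1G, POLR1A and POLR3G, all of them lower, where 21.5% of all genes were beyond 1 in either direction.

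Most subunits found only in RNA polymerase I were lower with both siRNAs. With siGGGGGC 5 of 6 fell and with siGGCAGU 6 of 6, at medians of -0.65 and -0.75. POLR1G, which forms a module that helps the enzyme start and elongate, went from 486.11 (mean of 2) in siNT1 to 132.7 with siGGGGGC (-1.87, SE 0.129, adjusted p = 1.3e-08, edgeR) and 260.35 with siGGCAGU (-0.89, SE 0.118, adjusted p = 1.2e-05, edgeR). POLR1A, the largest subunit, fell by 1.18 with siGGGGGC (SE 0.107, adjusted p = 2.39e-07, edgeR) and by 0.77 with siGGCAGU (SE 0.105, adjusted p = 1.64e-05, edgeR). POLR1F, of the stalk, was at 0.17 with siGGGGGC (SE 0.0949, adjusted p = 0.145, edgeR) and fell by 0.35 with siGGCAGU (SE 0.0959, adjusted p = 0.00646). The fall of POLR1F was lost without siNT1 replicate 2 (-0.27, adjusted p = 0.0598) or siGGCAGU replicate 2 (-0.25, adjusted p = 0.0616). In the longest 3′ UTR, POLR1A holds 3 copies of GCCCCC and POLR1G 1, and none was found in POLR1F, or in POLR1B, POLR1E and POLR1H, which also fell with siGGGGGC and are named after their values were seen. Of the pair that RNA polymerases I and III share, POLR1C rose with both siRNAs (0.32, adjusted p = 0.00893, and 0.48, adjusted p = 0.000462, edgeR), and POLR1D was at -0.03 (adjusted p = 0.821) with siGGGGGC and fell by 0.34 (adjusted p = 0.0144) with siGGCAGU. The call of POLR1C with siGGGGGC was lost with no filter on low counts (0.20, adjusted p = 0.222) and without siNT1 replicate 1 (0.24, adjusted p = 0.0796) or siGGGGGC replicate 1 (0.29, adjusted p = 0.0752). That of POLR1D with siGGCAGU was lost without siNT1 replicate 2 (-0.18, adjusted p = 0.192) or siGGCAGU replicate 2 (-0.23, adjusted p = 0.124) and in the fit of the libraries compared (-0.39, adjusted p = 0.0502).

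Among the other subunits of RNA polymerase II, 2 of 5 fell and 1 rose with siGGGGGC. POLR2D, of the stalk, fell by 0.69 with siGGGGGC (SE 0.155, adjusted p = 0.00152, edgeR) and by 0.71 with siGGCAGU (SE 0.155, adjusted p = 0.00125, edgeR). POLR2I, which takes part in proofreading, rose by 0.62 with siGGGGGC (SE 0.173, adjusted p = 0.00631, edgeR) from a low level, 68.97 to 105.7 normalised counts, and was at -0.27 with siGGCAGU (SE 0.185, adjusted p = 0.238). The rise was lost without siNT1 replicate 2 at 48 h (0.50, adjusted p = 0.0553) and without siGGGGGC replicate 2 (0.55, adjusted p = 0.0597).

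The other subunits of RNA polymerase III went both ways. With siGGGGGC 7 of the 9 fell and 2 rose, and with siGGCAGU 3 fell and 4 rose. POLR3G, which is 1 of a pair of alternative subunits of the enzyme, went from 1443.2 in siNT1 to 709.21 with siGGGGGC (-1.03, SE 0.0987, adjusted p = 4.37e-07, edgeR) and to 2970.7 with siGGCAGU (1.04, SE 0.0948, adjusted p = 2.19e-07, edgeR), and the siRNAs differed by -2.06 (SE 0.1, adjusted p = 2.69e-10, edgeR). POLR3G holds no match for either seed in its longest 3′ UTR. POLR3K, which acts in RNA cleavage and termination, fell by 0.93 with siGGGGGC (SE 0.153, adjusted p = 9.47e-05, edgeR) and by 1.11 with siGGCAGU (SE 0.153, adjusted p = 1.87e-05, edgeR). POLR3F, which helps to open the promoter, rose by 0.65 (SE 0.0982, adjusted p = 4.53e-05, edgeR) and 0.43 (SE 0.0985, adjusted p = 0.0018, edgeR).

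**Figure D5:**
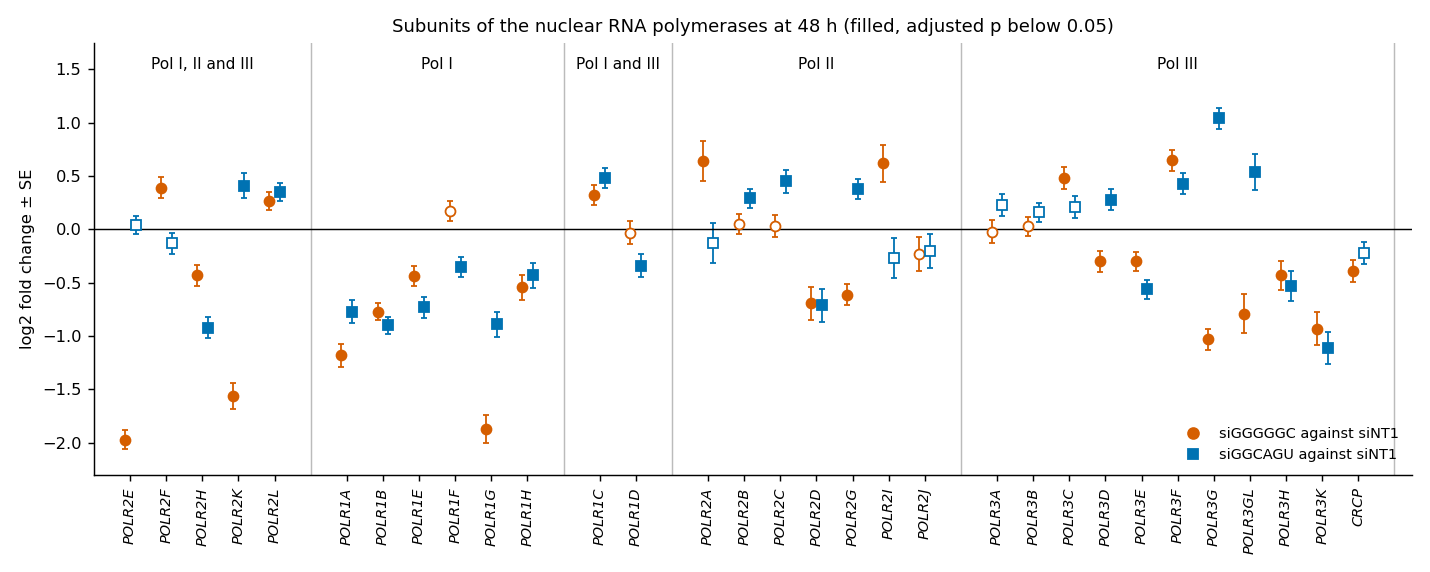
The log2 fold change at 48 h with its SE (vertical axis) is plotted for 31 subunit genes, grouped by the polymerase that holds them, with circles for siGGGGGC and squares for siGGCAGU, each against siNT1, and filled symbols where the adjusted p was below 0.05. The 6 subunits found only in RNA polymerase I are at or below 0 with siGGCAGU, the shared subunits are spread from -1.97 to 0.41, and POLR3G has opposite signs with the siRNAs.

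At 24 h, 5 of the 22 other subunits passed the test with siGGGGGC, where 10.6% of all genes tested rose and 8.32% fell. POLR3F (0.47, adjusted p = 0.00497, edgeR) and POLR1F (0.34, adjusted p = 0.0214) rose, and POLR1G (-0.54, adjusted p = 0.00631), POLR1D (-0.33, adjusted p = 0.0443) and POLR3D (-0.32, adjusted p = 0.0362, named after its value was seen) fell. With the replicate number as a block 3 passed, and POLR1D (adjusted p = 0.0612) and POLR3D (adjusted p = 0.0543) did not. The count was 0 to 3 without single libraries (0 without siNT1 replicate 2, 1 without siGGGGGC replicate 2, 2 without siNT1 replicate 1 and 3 without siGGGGGC replicate 1). The siGGGGGC effect was lower at 48 h than at 24 h by the test of that difference for 9 of the 22 and higher for none, where 15.2% and 13.4% of all genes were. In siNT1 alone, POLR1A (0.63, adjusted p = 0.0018, edgeR) and POLR2D (0.70, adjusted p = 0.00931) rose with time and POLR1C (-0.40, adjusted p = 0.0118), POLR1D (-0.39, adjusted p = 0.0242) and POLR3E (-0.27, adjusted p = 0.0471, named after its value was seen; 0.064 with the replicate block) fell. Of the 22, 1 passed without siNT1 replicate 1 or 2 at 24 h or replicate 1 at 48 h.

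Genes that assemble and import the polymerases went both ways. Of 11, 5 rose and 2 fell with siGGGGGC at 48 h (27.8% and 27.5% of all genes), and 3 rose and 2 fell with siGGCAGU, at medians of 0.14 and -0.06. RPAP1, an assembly factor of RNA polymerase II, fell by 0.72 with siGGGGGC (SE 0.146, adjusted p = 0.000644, edgeR) and by 1.16 with siGGCAGU (SE 0.15, adjusted p = 9.39e-06, edgeR). SLC7A6OS, which helps to carry RNA polymerase II into the nucleus, rose by 0.77 with siGGGGGC (SE 0.171, adjusted p = 0.00139, edgeR) and was at -0.30 with siGGCAGU (SE 0.185, adjusted p = 0.183), or -0.55 (adjusted p = 0.0294) without siGGCAGU replicate 1. POLRMT, the single-subunit polymerase of mitochondria, rose by 0.30 with siGGGGGC (adjusted p = 0.025, edgeR) and fell by 0.27 with siGGCAGU (adjusted p = 0.0461), and neither passed in DESeq2 (adjusted p = 0.0802 and 0.12). Leaving out siNT1 replicate 1 (adjusted p = 0.134) or siGGGGGC replicate 1 or 2 (0.0648 and 0.153) also ended the first call, and leaving out siNT1 replicate 2 (0.199) or siGGCAGU replicate 1 or 2 (0.142 and 0.0782) the second.

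Initiation factors went both ways. For RNA polymerase II, 8 of 17 rose and 3 fell with siGGGGGC, and 10 rose and 2 fell with siGGCAGU. GTF2E2, of TFIIE, was the highest with siGGGGGC at 0.85 (SE 0.0926, adjusted p = 1.57e-06, edgeR) and was at 0.54 (adjusted p = 0.000167) with siGGCAGU, and GTF2H3, of TFIIH, fell by 0.54 (SE 0.0962, adjusted p = 0.000219, edgeR) with siGGGGGC and rose by 0.39 (adjusted p = 0.00266) with siGGCAGU, a call lost in the fit of the libraries compared (0.34, adjusted p = 0.0566). Of 11 genes that act on the paused polymerase and on its tail, 5 fell and 2 rose with siGGGGGC, and 4 fell and 2 rose with siGGCAGU. CDK9 and CCNT1 are the kinase and the cyclin of P-TEFb, which releases paused RNA polymerase II. With siGGGGGC CDK9 fell by 0.77 (SE 0.162, adjusted p = 0.000908, edgeR) and CCNT1 rose by 0.63 (SE 0.0871, adjusted p = 1.88e-05, edgeR). With siGGCAGU the signs were the other way. CDK9 was at 0.32 and did not pass (0.11 to 0.55 over the alternatives). CCNT1 was at -0.25 (-0.33 to -0.2), a call that was lost in some alternatives.

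For RNA polymerase I, 2 of 6 initiation factors fell and 2 rose with siGGGGGC, and 4 fell with siGGCAGU. TAF1D, of the promoter selectivity factor, fell by 1.71 with siGGGGGC (SE 0.0873, adjusted p = 5.63e-10, edgeR) and by 0.90 with siGGCAGU (SE 0.0849, adjusted p = 3.02e-07). UBTF, which binds the ribosomal RNA genes, fell by 1.32 (SE 0.13, adjusted p = 5.59e-07, edgeR) and 0.77 (SE 0.126, adjusted p = 0.000106). RRN3, which bridges the enzyme to the promoter, rose by 0.99 with siGGGGGC (SE 0.0906, adjusted p = 2.5e-07, edgeR) and was at 0.03 with siGGCAGU (adjusted p = 0.816). For RNA polymerase III, 7 of 16 initiation factors fell and 2 rose with siGGGGGC, and 6 fell and 3 rose with siGGCAGU. GTF3C6, of TFIIIC, fell by 0.71 with siGGGGGC (SE 0.118, adjusted p = 0.000105, edgeR) and by 1.57 with siGGCAGU (SE 0.121, adjusted p = 3.7e-08). SNAPC1 fell by 1.33 with siGGCAGU (SE 0.169, adjusted p = 8.06e-06, edgeR) and was at -0.29 with siGGGGGC (adjusted p = 0.137), and SNAPC5, of the same complex, fell by 0.94 with siGGGGGC (SE 0.113, adjusted p = 4.62e-06) and was at 0.25 with siGGCAGU (adjusted p = 0.0606). SNAPC1 with siGGGGGC passed with no filter on low counts (-0.41, adjusted p = 0.00383) and in the fit of the libraries compared (-0.30, adjusted p = 0.0395), and SNAPC5 with siGGCAGU without siNT1 replicate 2 (0.37, adjusted p = 0.0157), with upper quartile normalization (adjusted p = 0.0482) and at a mean count of at least 50 (adjusted p = 0.0449). GTF3C3, also of TFIIIC, rose by 0.60 (SE 0.122, adjusted p = 0.000673) and 0.52 (adjusted p = 0.0021).

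Of 5 transcripts of RNA polymerase III that were looked for, 1 was tested. RN7SL2, the RNA of the signal recognition particle, rose by 0.76 with siGGGGGC (SE 0.229, adjusted p = 0.0108, edgeR) and by 0.67 with siGGCAGU (SE 0.229, adjusted p = 0.0232). It is a large part of each library, so these values move with its share of the reads, and both were lost when the libraries compared were fitted alone (adjusted p = 0.0766 and 0.219) and without siGGGGGC replicate 1 (0.55, adjusted p = 0.118) or siGGCAGU replicate 1 (0.25, adjusted p = 0.332). The second was also lost without siNT1 replicate 1 (0.45, adjusted p = 0.098). The 8 other genes that the study chose with POLR2E and POLR2K were lower with siGGGGGC at 48 h, from -4.39 to -1.67, and their values are no independent evidence of that direction.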

How the data were processed

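Per the study's methods, paired-end libraries were made from ribosomal RNA-depleted total RNA, trimmed, aligned to hg38 with TopHat or STAR, and counted over Ensembl exons with HTSeq. The submitters' notes also list Bowtie2 and DESeq2. The strand setting is not given in the sources used here, and 6 of the 9 genes share 55 to 352 exonic bases with a gene on the opposite strand. The authors deposited raw counts per gene for each of the 10 libraries. Tables of the authors' own comparisons (fold changes and p-values) were not used. Of 58395 identifiers, 98.9% were in GENCODE 44, whose symbols and coordinates (hg38) are given. POLR2J3 has 2 identifiers and was left out. A further list of marker genes is not reported here.

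The counts were fitted in R 4.3.3 with edgeR 4.0.16 (TMM, filterByExpr on the 5 groups, glmQLFit and glmQLFTest, 5 residual degrees of freedom), with 1 fit over all libraries and Benjamini-Hochberg adjustment over the 16905 genes kept. Passing means an adjusted p below 0.05. The fit was tested on simulated data. With 2 libraries against 2, a permutation test of 1 gene cannot go below p = 0.333 (two-sided), so none is given. Correlations used log2 CPM with a prior count of 2. Library totals set the counting precision, and each of the 9 genes had at least 391 counts in each library.

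The members and lists were chosen with earlier results of these data known. Besides the 9 genes, the text names, of each list, the genes beyond a log2 fold change of 1 at an adjusted p below 0.05 at 48 h, and the lowest and highest with siGGGGGC at 48 h; the study's other target genes are given as a range. Alternatives were other normalizations and filters, DESeq2 1.42.0, the libraries compared alone, the replicate number as a block, each library left out, and other transcript lengths and 3′ UTRs.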

Additional observations from a re-analysis of the deposited data

Results flagged for a closer look

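Some of the values that differed between conditions by a test of the difference itself are given here, and the list is not complete. Between siGGGGGC and siGGCAGU at 48 h, POLR2E (-2.01, adjusted p = 1.44e-10, edgeR) and POLR3G (-2.06, adjusted p = 2.69e-10) also passed such a test. POLR2E and POLR2K were chosen for a fall with siGGGGGC in this experiment, so their values here are no independent evidence of it. The response of UBTF and CDK9 to siGGGGGC was also lower at the later time, by log2 differences of -1.47 and -1.24. POLR2K was lower with siGGGGGC and higher with siGGCAGU than with siNT1 at 48 h, and the log2 fold change between the siRNAs was -1.97 (adjusted p = 2.8e-09, edgeR quasi-likelihood test). The rise with siGGCAGU alone, 0.41, ranged from 0.22 to 0.62 over the alternatives and did not pass without siNT1 replicate 1 (adjusted p = 0.106) or siGGCAGU replicate 1 (adjusted p = 0.0535) or in the fit of the libraries compared (adjusted p = 0.0838). The siGGGGGC effect on POLR1G was lower at 48 h than at 24 h by a log2 difference of -1.33 (SE 0.179, adjusted p = 6.38e-05, edgeR), from -0.54 to -1.87. For POLR3G the difference was -1.05 (SE 0.138, adjusted p = 5.15e-05, edgeR), from 0.03 at 24 h to -1.03 at 48 h. The groups of 2 libraries were too small for a search for outlying libraries.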

How the results depend on the processing

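POLR2E, POLR2K, POLR2H and POLR2F kept their direction and their side of the threshold with siGGGGGC against siNT1 at 48 h under each alternative run, with log2 fold changes from -2.09 to -1.90, -1.75 to -1.36, -0.56 to -0.30 and 0.26 to 0.51. In the fit of only the libraries compared, 1 of the 9 genes passed with siGGCAGU, 8 other subunits passed with siGGGGGC at 24 h, 1 other subunit was beyond 1 with siGGCAGU, and POLR2E and RRN3 with siGGCAGU were at -0.0073 and -0.018. With no filter on low counts, 1 of the 9 genes and 1 other subunit were beyond 1 with siGGCAGU, 4 other subunits were beyond 1 between the siRNAs and 4 between the siGGGGGC effects at 48 and 24 h, 1 of the 9 genes passed with time in siNT1, and log2 fold changes near 0 changed sign, to -0.067 for POLR2B and -0.094 for POLR3B with siGGGGGC and to -0.039 for POLR2E and -0.053 for RRN3 with siGGCAGU. This alternative also moved the median of all genes to 0.143 for the difference between the times. With upper quartile normalization, 4 other subunits were beyond 1 between the siRNAs, 8 passed with time in siNT1, and POLR3A with time was at -0.00038. Leaving out RN7SL2 and SNORD3A gave -0.0039 for POLR3B with siGGGGGC. The level ratio was 57.6 with the longest transcript, and the shortest 3′ UTRs held GCCCCC in 1 gene and ACTGCC in 1. The cause of these changes was not tested.

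Without single libraries, the number of the 9 genes that passed was 2 to 5 with siGGCAGU and 0 to 4 with time, and 0 to 1 were beyond 1 with siGGCAGU. Of the other subunits, 1 to 4 were beyond 1 with siGGCAGU and 2 to 4 between the siRNAs, 1 to 7 passed with time, and 0 to 3 passed at 24 h. Log2 fold changes that changed sign ranged, with siGGGGGC at 48 h, from -0.041 to 0.14 for POLR2B, -0.16 to 0.10 for POLR3A, -0.036 to 0.079 for POLR3B and -0.19 to 0.13 for POLR1D. With siGGCAGU they ranged from -0.52 to 0.35 for POLR2A and -0.053 to 0.11 for RRN3, and with time from -0.24 to 0.63 for POLR2A and -0.075 to 0.18 for POLR3A.

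The labels link the replicates of different groups by number only, and whether they shared a plate is not given. The differences between replicates 1 and 2 correlated between groups at -0.293 to 0.115, which cannot settle it. With the replicate number as a block, 9101 genes in place of 9345 passed with siGGGGGC at 48 h and 2849 in place of 3203 at 24 h. Among the 9 genes 6 passed as before at 48 h, and of the other subunits 3 in place of 5 passed at 24 h. The calls lost at 24 h were POLR1D and POLR3D. POLR2B between the siRNAs (adjusted p = 0.0581), POLRMT with siGGCAGU (adjusted p = 0.0584) and POLR3E with time in siNT1 (adjusted p = 0.064) also lost their call, and no other call printed here did.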
